A study of Brassica rapa with 12 samples.

Results

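The 57 genes described here held nearly the same share of the reads in buds and in stems of Brassica rapa, and with or without silencing of BrCHR39. They were chosen on their measured levels, in CPM, the reads of a gene per 1000000 reads assigned to genes in that library. A gene had to reach at least 50 CPM in each of the 12 libraries, and the highest of its 4 group means could lie at most 25% above the lowest. Of the 41020 genes listed, 1849 met the minimum level and 57 of those met the ratio, which is 3.08% of the 1849 and 0.139% of all. A cap of 300 genes did not come into play. Because the rule used the group means, the levels below are a description, and counts of genes called by a model fitted to all genes are given for these genes as a description too, not as evidence.

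The plants were 8 weeks old and grown in a climate chamber, and the silenced lines were transgenic. The libraries form 4 groups of 3, namely buds of BrCHR39-silenced lines, buds of wild type plants, stems of BrCHR39-silenced lines and stems of wild type plants. The labels give neither the way of silencing, nor how many lines were used, nor whether different plants gave the 3 libraries of each group. Spread between replicates may therefore be technical. The series' title calls BrCHR39 a chromatin remodelling ATPase with a positive role in apical dominance, the hold of the main shoot tip over the side shoots. Reads assigned to genes ran from 12275190 to 15693349 per library, so a single stable gene rested on 654 to 6780 reads in a library. The files list genes by identifier only, and the gene table used here paired 0 of the 57 identifiers with a name. No function is therefore given for any of them, and the tissue labels and the level of BrCHR39 were not checked on marker genes here.

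Chromatin remodelling ATPases of the SNF2 family use ATP to slide, evict or exchange nucleosomes, and so change how accessible genes are to the transcription machinery. Genes with steady transcript levels across tissues are often called housekeeping genes. Plant laboratories use a few of them, such as actin, ubiquitin or elongation factor genes, as internal standards when transcripts are measured by quantitative PCR. A steady share of the reads is a relative measure: it depends on everything else that the library holds, and in whole organs fewer cells of a type and less RNA per cell cannot be told apart.

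Few abundant genes were this steady. Over the 1849 genes with at least 50 CPM in every library, the highest group mean was 2.21 times the lowest at the median, and 1098 genes, or 59.4%, differed by more than 2-fold between some pair of groups. The 57 genes ran in ratio from 1.04 to 1.249, with a median of 1.18. They were the low edge of a continuous distribution, with no gap at the limit, and in 6 of them the highest group lay less than 10% above the lowest, and in 17 less than 15%. Just inside the limit lay Bra039025 at 1.246 and Bra025512 at 1.249, and just outside lay Bra040162 at 1.2505 and Bra035303 at 1.257. The minimum level also cut through similar genes. Bra008862 and Bra007608 passed with lowest libraries of 50.2 and 50.3 CPM, while Bra014823 and Bra029476 met the ratio but missed with lowest libraries of 49.6 and 49.5 CPM.

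**Figure D1:**
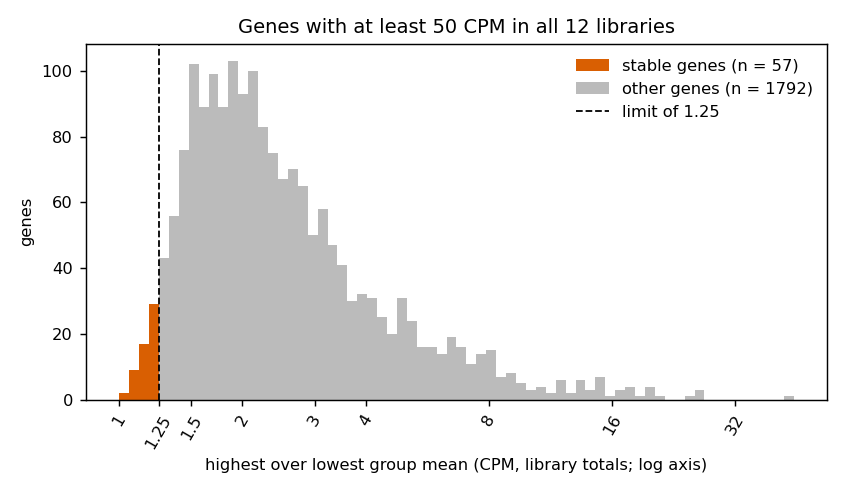
Number of genes (vertical axis) by the ratio of the highest to the lowest of 4 group means of CPM (horizontal axis, log scale), for the 1849 genes with at least 50 CPM in all 12 libraries. The 57 stable genes, in orange, form the left edge of the distribution below the dashed limit, and the median of all 1849 genes lies at 2.21.

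Each single comparison was met by many more genes, and it was their combination that left few. Between silenced and wild type buds 598 of the 1849 genes, 32.3%, stayed within the same 25% limit. Between silenced and wild type stems 769 genes, 41.6%, did so. Wild type buds and wild type stems kept 553 genes within the limit, 29.9%, and silenced buds and silenced stems kept 427, 23.1%. Stability under silencing in both organs was met by 273 genes, and stability between organs in both genotypes by 156. All 4 of these comparisons together were met by 71 genes, of which 57 also met the 2 pairs that cross organ and genotype.

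The gene with the smallest ratio was Bra010012, with a coding length of 1617 bases. It had 60.5, 58.5 and 60.4 CPM in silenced buds, 61.5, 55.5 and 59.4 in wild type buds, 58.8, 59.2 and 58.5 in silenced stems and 60.3, 55.0 and 56.7 in wild type stems. Its group means were 59.8 ± 1.098 CPM in silenced buds, 58.8 ± 3.06 in wild type buds, 58.8 ± 0.349 in silenced stems and 57.4 ± 2.70 in wild type stems (SD, n = 3 each), a ratio of 1.04. The libraries of all 4 groups interleaved. In FPKM, which also divides by coding length, it averaged 36.3.

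Bra000681 (1584 bases) came next with a ratio of 1.05. It had 108, 102 and 97.1 CPM in silenced buds, 105, 108 and 109 in wild type buds, 105, 108 and 104 in silenced stems and 109, 103 and 105 in wild type stems. Silenced buds held its lowest library and had the widest spread. Bra010012 and Bra000681 were the only 2 of the 57 genes whose highest and lowest groups overlapped. In the other 55 every library of the highest group lay above every library of the lowest group, as it did in 99.9% of all 1849 genes. That share is fixed in part by picking the highest and the lowest of 4 groups, and nothing is read from it here.

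Bra023597 (816 bases) had 90.2, 88.2 and 97.5 CPM in silenced buds, 88.5, 91.3 and 92.4 in wild type buds, 88.6, 96.3 and 92.4 in silenced stems and 101, 93.4 and 94.7 in wild type stems, a ratio of 1.06. Wild type stems were highest and wild type buds lowest in the mean, and these groups did not overlap. Bra039146 (1521 bases) had 94.8, 83.6 and 84.1 CPM in silenced buds, 84.5, 86.5 and 91.8 in wild type buds, 81.2, 80.2 and 82.8 in silenced stems and 87.6, 86.1 and 84.0 in wild type stems, a ratio of 1.08. Here the silenced stems were the low group, and the other 3 groups interleaved.

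At the other end of the list the differences were small but plain against the replicates. Bra025512 (741 bases) had 63.9, 61.1 and 58.2 CPM in silenced buds, against 74.1, 67.6 and 74.9 CPM in wild type buds. It had 58.3, 58.8 and 56.2 CPM in silenced stems, against 70.8, 71.2 and 72.8 CPM in wild type stems. Every silenced library lay below every wild type library, in both organs. Bra039025 (1503 bases) showed the same order, with 81.3 ± 3.24 CPM in silenced buds, against 100 ± 2.56 CPM in wild type buds (SD, n = 3 each). Its silenced stems had 80.6 ± 2.88 CPM, against 92.7 ± 1.84 CPM for wild type stems. Its silenced libraries also lay below all its wild type libraries.

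**Figure D2:**
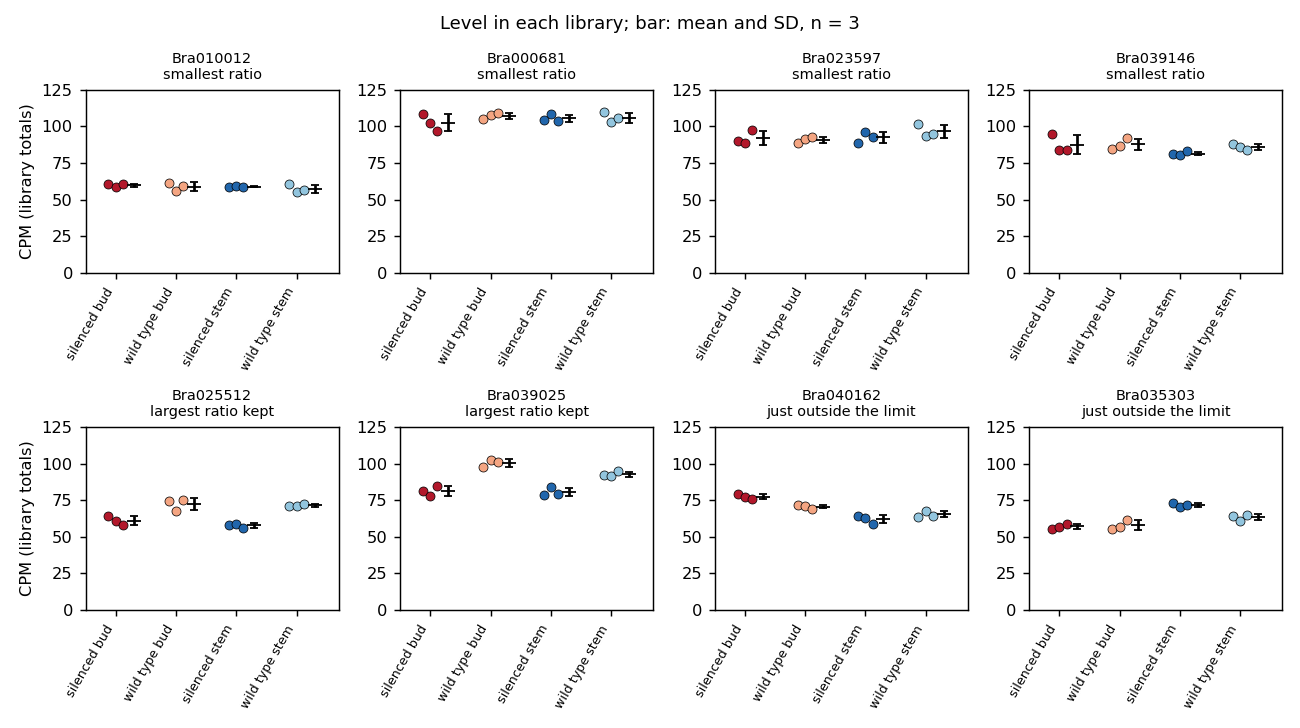
CPM (vertical axis, from 0) in each of the 12 libraries for 8 genes, with silenced buds, wild type buds, silenced stems and wild type stems from left to right; circles are libraries and bars give the mean and SD (n = 3). The 4 genes of smallest ratio are level across groups, Bra025512 and Bra039025 are lower in the silenced libraries of both organs, and Bra040162 and Bra035303 lie just outside the limit.

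The genes just outside the limit had other orders of groups. Bra040162 (825 bases) had 77.5 ± 1.65 CPM in silenced buds, 70.7 ± 1.34 in wild type buds, 62.0 ± 2.82 in silenced stems and 65.3 ± 2.04 in wild type stems (SD, n = 3 each). Its bud libraries were all above its stem libraries. Bra035303 (657 bases) had 57.1 ± 1.67 CPM in silenced buds, 57.9 ± 3.42 in wild type buds, 71.7 ± 1.61 in silenced stems and 63.4 ± 2.14 in wild type stems. In it both stem groups had the higher means, silenced stems stood above all other groups, and wild type stems overlapped wild type buds.

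Per coding length, the most abundant of the 57 were 2 short genes. Bra032721, of 270 bases, had 681, 695 and 718 FPKM in silenced buds, 711, 677 and 663 in wild type buds, 864, 823 and 866 in silenced stems and 777, 793 and 832 in wild type stems. All its stem libraries lay above all its bud libraries, and its ratio of 1.24 came from silenced stems over wild type buds. Bra008231, of 483 bases, had 498, 484 and 511 FPKM in silenced buds, against 623, 618 and 616 FPKM in wild type buds. It had 524, 497 and 514 FPKM in silenced stems, against 570, 572 and 589 FPKM in wild type stems. This gene, like Bra025512, was lower in every silenced library than in any wild type library.

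The remaining spread among groups had no common shape. Silenced stems were the highest group in 17 of the 57 genes, wild type buds in 16, silenced buds in 12 and wild type stems in 12. Wild type buds were the lowest group in 19, wild type stems in 15, silenced stems in 13 and silenced buds in 10. Silencing shifted the mean upward in both organs in 17 genes, downward in both in 16, upward in buds and downward in stems in 12, and the reverse in 12. Wild type buds were above wild type stems in 29 genes and below in 28, and silenced buds were above silenced stems in 26 and below in 31. These are directions of means, most of them small, and not calls.

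**Figure D3:**
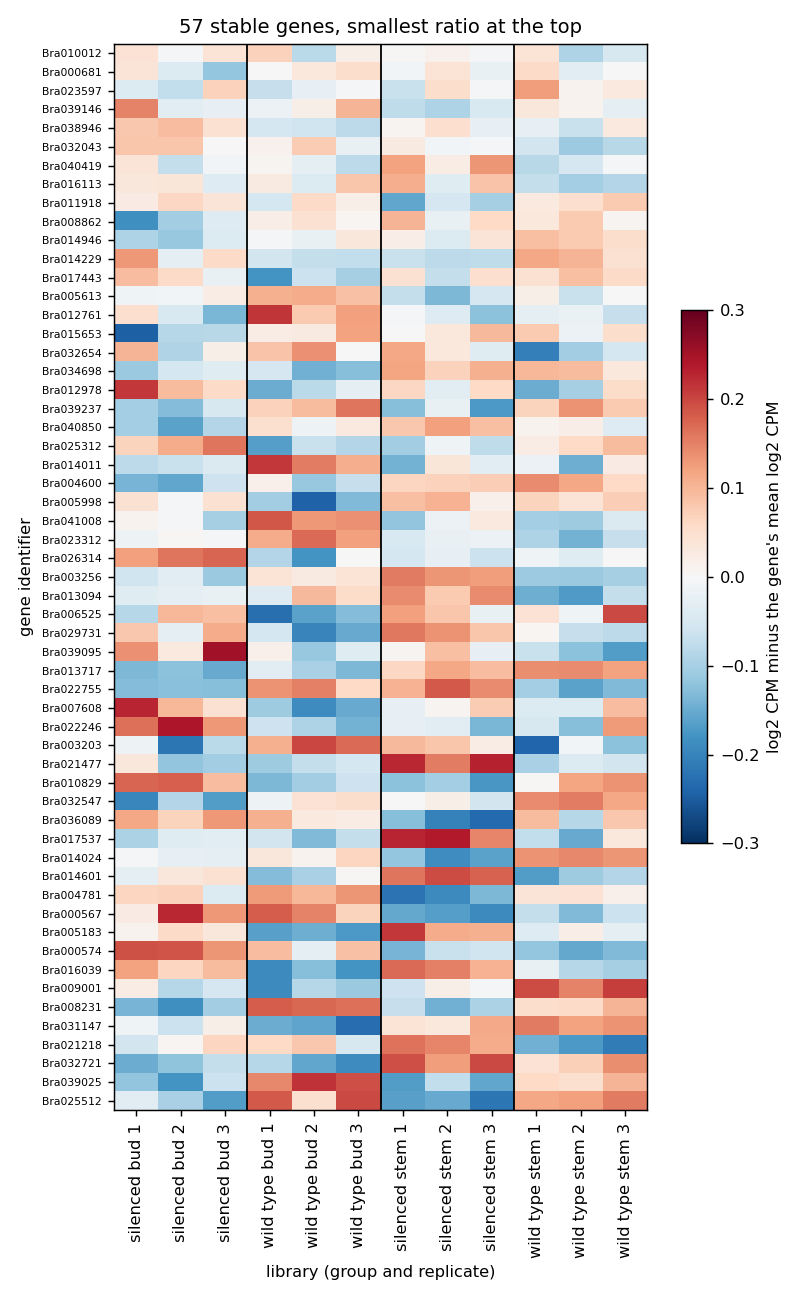
Log2 CPM minus the gene's mean over the 12 libraries (colour, red high and blue low, limits -0.3 and 0.3) for the 57 genes, ordered by ratio from the top. Columns are the libraries of silenced buds, wild type buds, silenced stems and wild type stems; the upper rows are pale throughout, and the lower rows show blocks of 3 libraries that differ from gene to gene.

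The spread between groups can be split into a part for the organ, a part for silencing and a part for the difference of the silencing effect between organs. In the 57 genes the median size of these parts on the log2 scale was 0.078 for organ, 0.082 for silencing and 0.083 for their interaction. In the 1792 other genes at the same minimum level it was 0.61 for organ, 0.28 for silencing and 0.39 for the interaction. Organ was the largest part in 19 of the 57 genes, 33.3%, and in 56.5% of the others; silencing was the largest in 22 of the 57, 38.6%, and in 14.8% of the others. The ratio limit caps all 3 parts alike, so a near even split among the 57 follows in part from the rule, and no test is given.

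Summed over the 57 genes, the share of reads also stayed level. The sum was 6016 ± 32.2 CPM in silenced buds, 6078 ± 21.2 in wild type buds, 6142 ± 23.6 in silenced stems and 6151 ± 49.0 in wild type stems (SD, n = 3 each), between 0.599% and 0.620% of the reads of each library. All genes at the minimum level together took 39.0% of the reads in silenced buds, 37.1% in wild type buds, 46.7% in silenced stems and 45.2% in wild type stems. Stems thus put more of their reads into these 1849 genes than buds did. The level sum of the 57 genes follows from the limit on each of them.

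Stability of these genes was tied to the way libraries are scaled. Library totals, which the rule uses, set the sum of all reads equal. TMM, the trimmed mean of M-values used by edgeR, sets the bulk of the genes equal instead, and it gave scaling factors of 1.18 for silenced buds, 1.12 for wild type buds, 0.864 for silenced stems and 0.873 for wild type stems. Going from library totals to TMM thus lowers every bud to stem log2 difference by 0.37 in wild type and by 0.45 in silenced plants, and every silenced to wild type log2 difference by 0.069 in buds, while in stems it adds 0.015. With TMM all 57 genes had both bud means below both stem means. Their median ratio was then 1.498, the range 1.16 to 1.67, and 2 of the 57 stayed within the limit.

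The fitted log2 differences show the same shift. Between wild type buds and wild type stems the 57 genes had a median of -0.35 with TMM, in a range of -0.68 to -0.08, beside a median of 0.11 over all 28114 genes tested. With library totals their median was 0.012, beside 0.48 over all genes. Between silenced buds and silenced stems it was -0.47 with TMM, beside 0.05 over all genes, and -0.023 with library totals, beside 0.49. A change of scaling shifts all genes alike, and the rule placed the 57 near 0 with library totals, so their gap to the median gene is set by the rule. The silencing comparisons moved less than the organ comparisons. In buds the median of the 57 was -0.06 with TMM and 0.012 with library totals. In stems it was 0.02 with TMM and 0.006 with library totals. The shift in buds was not small beside the median silencing part of the 57, 0.082.

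**Figure D4:**
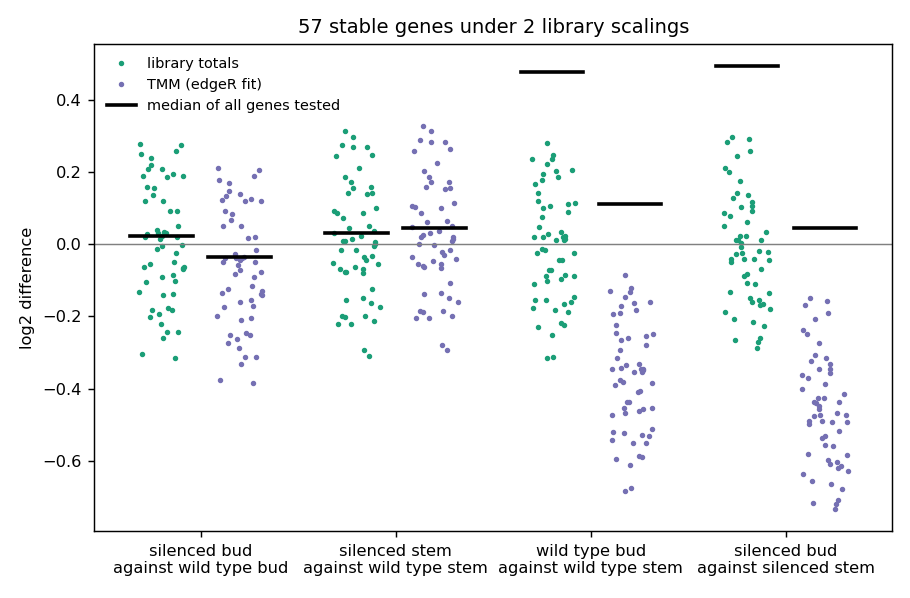
Log2 difference (vertical axis) of each of the 57 genes in 4 comparisons, from group means with library totals (green) and from the edgeR fit with TMM (purple); black bars give the median of all genes tested under each scaling. In both silencing comparisons the genes surround 0 under either scaling, whereas in both organ comparisons they surround 0 with library totals and all lie below 0 with TMM. Their place below 0 with TMM follows from the rule and the change of scaling.

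The 2 genes that stayed within the limit under both scalings were Bra000567 and Bra000574. Bra000567 (714 bases) had 93.8, 108 and 100.9 CPM in silenced buds, 105, 102 and 96.7 in wild type buds, 83.0, 82.3 and 80.8 in silenced stems and 87.8, 84.2 and 88.2 in wild type stems with library totals, a ratio of 1.23. Its bud libraries were all above its stem libraries. With TMM the order of the organs turned, to 85.5 ± 6.06 CPM in silenced buds, 89.98 ± 3.76 in wild type buds, 94.96 ± 1.29 in silenced stems and 99.4 ± 2.47 in wild type stems (SD, n = 3 each), a ratio of 1.16.

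Bra000574 is the shortest of the 57, with a coding length of 237 bases. It had 80.8, 80.7 and 77.6 CPM in silenced buds, 75.5, 69.5 and 75.2 in wild type buds, 64.3, 67.6 and 67.9 in silenced stems and 65.3, 63.6 and 64.6 in wild type stems with library totals, a ratio of 1.24. With TMM it had 67.6 ± 1.46 CPM in silenced buds, 65.3 ± 2.88 in wild type buds, 77.1 ± 2.26 in silenced stems and 73.9 ± 1.02 in wild type stems, a ratio of 1.18. Here too library totals put the buds above the stems and TMM put them below. By contrast Bra010012, the steadiest with library totals, had a TMM ratio of 1.34, with 50.7 ± 0.918 CPM in silenced buds, 52.3 ± 2.63 in wild type buds, 68.1 ± 0.301 in silenced stems and 65.7 ± 3.14 in wild type stems.

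Applied with TMM, the same rule found 61 genes, of which only Bra000567 and Bra000574 were among the 57. With library totals all 61 were higher in wild type buds than in wild type stems, by a median of 1.21-fold, and silenced buds stood above silenced stems by a median of 1.40-fold. The limit under TMM and the change of scaling fix this order of the organs, so nothing is read from it. DESeq2's size factors found 61 genes with 2 shared, and upper-quartile scaling 62 with 8 shared. A scaling to equal FPKM totals, added after the data were seen, found 50 genes with 39 shared.

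The following counts describe the chosen genes, since the rule limited the group means that the model compares. With edgeR's quasi-likelihood test, fitted to all genes and called at an adjusted p under 0.05, 39 of the 57 were called between silenced and wild type buds, 15 higher and 24 lower, where 79.8% of all genes tested were called, 38.5% higher and 41.3% lower. Between silenced and wild type stems 31 were called, 18 higher and 13 lower, where 69.7% of all genes were called, 37.6% higher and 32.1% lower. Fitted on the stem libraries alone, 33 were called, 10 higher and 23 lower, where 9109 and 9523 of 24787 genes were. With upper-quartile scaling 36 were called, 15 higher and 21 lower, where 9927 and 9638 of 28114 genes were. Neither direction prevailed under all of these fits. Between wild type buds and wild type stems 56 were called, all lower in buds, where 86.3% of all genes were called, 45.6% higher and 40.6% lower. Between silenced buds and silenced stems 57 were called, all lower in buds, where 85.1% of all genes were called, 43.6% higher and 41.5% lower. Nothing is read from these counts.

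Under the scaling of the rule the organ counts were smaller and even. With library totals in edgeR, 36 of the 57 were called between wild type buds and stems, 18 higher and 18 lower in buds, where 87.4% of all genes were called, 55.5% higher and 31.9% lower. Between silenced buds and stems 34 were called, 15 higher and 19 lower, where 86.5% of all genes were called, 54.1% higher and 32.4% lower. For silencing in buds 37 were called, 19 higher and 18 lower, where 80.4% of all genes were called, 41.1% higher and 39.3% lower. With upper-quartile scaling the split in buds was 8 higher and 30 lower, where 10500 and 11881 of 28114 genes were called so. The lean of the 57 to lower levels thus depended on the scaling. For silencing in stems 30 were called with library totals, 17 higher and 13 lower, where 69.7% of all genes were called, 37.0% higher and 32.7% lower. A minimum change of 1.5-fold beside the adjusted p left 0 of the 57 in buds and 0 in stems for silencing with TMM, where 57.0% of all genes were called in buds and 45.7% in stems. The same minimum left 6 between wild type organs, where 70.1% of all genes were called, and 15 between silenced organs, where 69.9% were called.

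The interaction, the log2 difference between silenced and wild type in buds minus that in stems, is built from the same limited means and is likewise a description. It was called in 35 of the 57 genes with TMM, where 74.4% of all genes were called. It was positive in 11 of them, where 35.5% of all genes were called so, and negative in 24, where 38.8% were. Without silenced bud replicate 1 the split was 17 positive and 15 negative, where 10647 and 10104 of 28628 genes were called so. It was the same without silenced bud replicate 3, where 10562 and 10136 of 28617 genes were. The split over all genes thus turned as well. With library totals 33 were called, 15 positive and 18 negative, where 74.5% of all genes were called, 37.5% positive and 37.0% negative, so the lean to negative differences depended on the scaling too. With TMM 1 gene was called with a size of at least 1.5-fold, where 62.8% of all genes were. Among the named genes, Bra003203 had an interaction of -0.45 with library totals, which is short of 1.5-fold. Its levels were lower in silenced buds and higher in silenced stems than in the wild type.

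Library by library, the groups of a comparison did not overlap in many of the 57 genes. With library totals, silenced and wild type buds did not overlap in 36 of them and in 91.7% of the 1849 genes. Silenced and wild type stems did not overlap in 36 and in 90.2% of the 1849. Wild type buds and stems were apart in 37, beside 92.2% of the 1849, and silenced buds and stems in 32, beside 94.6%. The rule keeps the means of the 57 close, so a lower share follows from it. Across all 12 libraries the highest value of a gene was 1.12 to 1.35 times its lowest.

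With library totals 3 of the 57 genes were called in none of the 4 comparisons, namely Bra010012, Bra000681 and Bra014946; the last was named after its values were seen. Another 4 were called in 1 comparison, 27 in 2, 13 in 3 and 10 in all 4. Of all genes tested, between 69.7% and 87.4% were called in each single comparison. The number of comparisons called per gene is not given here over all genes, so nothing is read from these counts. A gene that missed the call is not shown to be equal between groups. The median standard error of a log2 difference over the 57 genes lay between 0.044 and 0.045 in these 4 comparisons, and the 25% limit of the rule corresponds to 0.32 on the log2 scale.

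The rule set no limit on the spread between replicate libraries. It can still disfavour genes with wide replicates, through the minimum in each library and through the group means. The genes compared below met the same minimum but missed the ratio. The replicate coefficient of variation (the SD over the mean within a group, as the root mean square of the 4 groups) had a median of 3.35% in the 57 genes, from 1.52% to 6.09%, and lay under 5% in 51 of them. In the 1792 other genes at the same minimum level the median was 2.84%. The 57 had lower levels, with a median of 76.6 CPM against 141 CPM in the others. Fewer reads give more counting error, and its part in the difference of the medians was not tested. The variance between replicates was 1.48 times that of counting alone at the median of the 57 genes, and 1.61 times in the others. Among genes averaging under 100 CPM the median coefficient of variation was 3.62% in 40 of the 57 and 3.56% in 454 others. The levels of these were not matched, with medians of 70.8 CPM in the 40 and 82.2 CPM in the 454. Genes are not replicates, so no test of these medians is given.

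**Figure D5:**
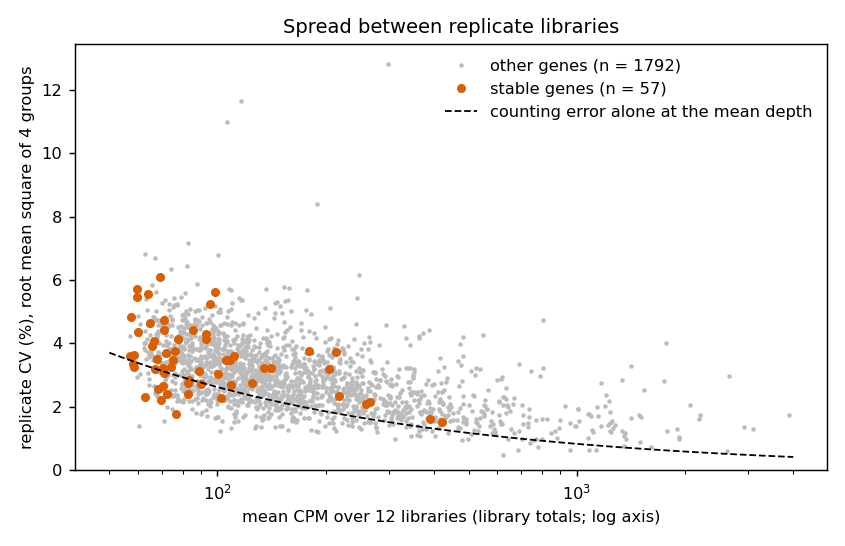
Replicate coefficient of variation (vertical axis, percent) against the mean CPM over 12 libraries (horizontal axis, log scale) for the 57 stable genes (orange) and the 1792 other genes (grey); the dashed line is counting error alone at the mean depth. The stable genes run from 1.52% to 6.09% and lie inside the cloud of the others at the same level.

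The tightest replicates belonged to 2 abundant genes. Bra003256 (1230 bases) had 403, 410 and 388 CPM in silenced buds, 432, 428 and 432 in wild type buds, 468, 460 and 458 in silenced stems and 390, 389 and 392 in wild type stems, with a coefficient of variation of 1.52%. Wild type buds and silenced stems each stood clear of all other groups, although the highest mean was 1.18 times the lowest. Bra014024 (798 bases), with 1.61%, had 385 ± 3.38 CPM in silenced buds, 400 ± 7.32 in wild type buds, 350 ± 8.66 in silenced stems and 429 ± 1.80 in wild type stems (SD, n = 3 each). Its silenced stems were lowest and its wild type stems highest.

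The loosest replicates were in genes near the minimum level. Bra006525 (639 bases), with 6.09%, had 65.1, 74.0 and 73.5 CPM in silenced buds, 59.0, 61.7 and 63.1 in wild type buds, 75.2, 73.2 and 67.9 in silenced stems and 71.1, 68.4 and 79.2 in wild type stems. Only its wild type buds stood apart from the other groups. Bra003203 (774 bases), with 5.71%, had 58.9, 51.2 and 56.3 CPM in silenced buds, against 64.0, 68.3 and 66.9 CPM in wild type buds. Its silenced stems had 63.6, 63.0 and 60.4 CPM, against 50.4, 59.1 and 54.6 CPM for wild type stems. Silenced buds were lower than wild type buds in it, and silenced stems were higher than wild type stems, without overlap in either organ.

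Coding length was a measure that the rule did not use. The 57 genes had a median coding length of 1224 bases, with quartiles at 834 and 1530, and ran from 237 to 3345 bases. The 1792 others had a median of 1254 bases, with quartiles at 792 and 1898, and reached 14433 bases. All 35651 genes with reads had a median of 1041 bases. The longest of the 57, Bra007608, averaged 17.2 FPKM, the lowest of them per length, with 18.7 ± 1.24 FPKM in silenced buds, 15.5 ± 0.441 in wild type buds, 17.4 ± 0.611 in silenced stems and 17.2 ± 0.921 in wild type stems (SD, n = 3 each). Only its wild type buds, the lowest group, stood apart from the rest. Over the 57 genes the mean level ran from 17.2 to 758 FPKM with a median of 75.5, against a median of 120 FPKM in the others.

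Membership itself was steady against the loss of a library. Leaving out each of the 12 libraries in turn gave between 54 and 60 genes, of which 53 to 57 were among the 57. Group medians in place of means gave 56 genes, 52 of them shared.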

How the data were processed

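The authors deposited a table of raw read counts for 41020 genes and a table of FPKM for 36230 of them, with 12 columns each, all matched to a sample title. Tools listed in the submitters' processing notes, with no role, are featureCounts 2.0.1, HISAT2 2.1.0, TopHat2 and Bowtie 1.0.1. The genome build, the annotation and whether counting used strand were not given in the sources used here. Each deposited FPKM value equalled the count over the library total and a whole length, a multiple of 3 and so a coding length (tolerance 1e-06). How reads were shared out among duplicated genes, which are frequent in Brassica rapa, was likewise not stated.

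The genes and tests were chosen with earlier results of these data known. CPM uses library totals unless TMM is named. Tests used edgeR 4.0.16 (R 4.3.3) on the counts of 28114 genes kept by filterByExpr (minimum count 10), TMM scaling, 1 term per group over 12 libraries and Benjamini-Hochberg adjustment over all genes; the fit was tested on simulated counts. Named were, by rule, the 4 smallest and 2 largest ratios, the 2 just outside, the 2 highest in FPKM, the extremes of replicate spread and coding length, and the 2 smallest ratios with TMM; genes at the level limit and Bra014946 were added after their values were seen. Gene lists and cell type markers planned by symbol were not used, since the table of names (CAAS_Brap_v3.01) paired 1 of the 41020 identifiers. Alternatives were other scalings, DESeq2 1.42.0, limma 3.58.1, other filters and limits, a replicate block and leaving out each library. The limma fits used log2(FPKM + 1) and log2(FPKM + 0.1) with a filter of 1 FPKM in 3 libraries. Without that filter only log2(FPKM + 1) was used.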

Additional observations from a re-analysis of the deposited data

Results flagged for a closer look

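A difference in the effect of silencing between the organs was called in 35 of the 57 genes, by edgeR's interaction test with TMM at an adjusted p under 0.05, where 74.4% of all genes tested were called. The effect was more positive in bud in 11 of them and more negative in 24. Over all 28114 genes tested 9982 were called more positive and 10922 more negative. Without silenced bud replicate 1 the count was 32, with 17 more positive and 15 more negative, where 10647 and 10104 of 28628 genes were. Without silenced bud replicate 3 it was also 32, with 17 and 15, where 10562 and 10136 of 28617 genes were. The prevailing direction thus changed without either library, in the 57 and over all genes alike. The direction also depended on the scaling. With library totals 33 were called, 15 more positive and 18 more negative, where 37.5% and 37.0% of all genes were. A difference of at least 1.5-fold was called in 1 gene, where 62.8% of all genes were. The rule used the same group means, so this count is a description of the chosen genes. Of the 15 genes among the 57 that were named by rule, 8 were called.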

How the results depend on the processing

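The number of genes meeting the rule was 57. It was 141 with a minimum of 20 CPM, 13 with 100 CPM, 6 with a ratio of at most 1.1, 258 with at most 1.5, and 2 under library totals and TMM at once; leaving out a library gave 54 to 60. The counts with another minimum level or ratio follow from the limit set. Why the library scalings differ was not tested, and neither was the cause of the changes when a library was left out. Calls among the 57 stayed within 1.5 times of the main counts for silencing in bud, for silencing in stem and for the interaction under every alternative run except the 1.5-fold minimum, which left 0, 0 and 1. For wild type organs the 56 calls became 36 with library totals, 34 with limma at either pseudocount and 36 with limma unfiltered, and 6 with the 1.5-fold minimum. For silenced organs the 57 calls became 34 with library totals, 32 with each limma setting and 15 with the 1.5-fold minimum. Over all genes, limma on log2(FPKM + 1) called 23892 of 27487 for wild type organs and 23638 of 27487 for silenced organs. With a pseudocount of 0.1 it called 23643 and 23679 of 27487, and unfiltered 26752 and 25316 of 36230. Leaving out a library gave 35 to 39 calls for silencing in bud, 29 to 30 in stem, 55 to 57 for wild type organs, 56 to 57 for silenced organs and 31 to 37 for the interaction. Over all genes the same fits called 21898 to 22182 for silencing in bud and 18852 to 18925 in stem, of 28527 to 28663 tested. They called 24089 to 24224 for wild type organs, 23641 to 23849 for silenced organs and 20573 to 20756 for the interaction. The median log2 difference for silencing in bud was 0.012 with library totals and -0.086 with upper-quartile scaling. For silencing in stem it was -0.014 with DESeq2's size factors and -0.031 with upper-quartile scaling. For wild type organs it was -0.38 with DESeq2's size factors, 0.012 with library totals and -0.27 with upper-quartile scaling, and for silenced organs -0.023 with library totals and -0.36 with upper-quartile scaling. For the interaction it was -0.0052 with library totals. The median replicate coefficient of variation ranged from 3.17% to 3.52% when a library was left out. Of the 17 genes named by rule, 16 had a ratio moved by more than its replicate spread with TMM. Leaving out a library moved none of the 17 that far in 204 trials.

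The replicate number as a block gave 39, 31, 56 and 57 calls in the 4 comparisons and 35 for the interaction, the same counts as without it. Of all 28114 genes tested, the fit with the block called 22274, 19458, 24147, 23811 and 20797 in the same order. Same-numbered libraries did not deviate together over all genes tested, with correlations from -0.0071 to 0.012. All genes weighed alike in these, low counts included. The labels do not say whether same-numbered libraries share a plant, and the correlations cannot settle it. Depth limits the ratios: at the lowest level kept, 654 reads, counting error alone is of the same order as the smallest differences between groups.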

Other observations

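Below the level set by the rule, few genes had steady shares either. Of the 5843 genes whose lowest library had 1 to 5 CPM, 24 kept their group means within the 25% limit, or 0.411%. The share was 1.45% of 7579 genes at 5 to 20 CPM, 2.19% of 3840 genes at 20 to 50 CPM and 3.51% of 1254 genes at 50 to 100 CPM. Above that it was 2.03% of 395 genes at 100 to 200 CPM and 2.50% of 200 genes from 200 CPM. Counting error widens the ratio most at low levels, and its part in these shares was not tested. In all, 275 of the 19111 genes with at least 1 CPM in every library, or 1.44%, met the ratio limit.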
